A study of Mus musculus with 4 samples.

Results

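Septal-type neurons marked by Trpc4, Zic1, Zic4, Prdm16 and Ano1 were examined in single-nucleus RNA sequencing of mouse brain. A nucleus counted as septal-type when at least 4 of 9 genes (Ano1, Prdm16, Zic1, Zic4, Trpc4, Col6a3, Npffr1, Cpa6 and Myo5b) were detected, Trpc4 had at least 1 UMI (unique molecular identifier, one counted RNA molecule) and Slc17a7, the vesicular glutamate transporter of cortical excitatory neurons, had at most 1. Only barcodes with at least 500 UMIs, at least 300 genes and at most 5% mitochondrial UMIs were considered. The rule took 1091 of 50595 nuclei, or 2.16%.

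The study set 2 ways of harvesting the brain against each other, each with and without fixation of the nuclei, in C57BL/6 wild-type mice aged 10 weeks. In the in vivo arm the brain was exposed by craniotomy under isoflurane, and in the post-mortem arm after cervical dislocation; the cerebellum was removed and the tissue frozen on dry ice for 10 min in both. Nuclei were either kept in 80% methanol at -20 °C for 30 min or left unfixed, and libraries were made with the SeekOne DD 3' kit. The 4 groups, in the order used for all lists of 4 values below, are in vivo methanol, in vivo unfixed, post-mortem methanol and post-mortem unfixed. Each group is 1 library from 1 distinct sample of at most 50 mg of tissue, with no replicate, so animal and tissue piece cannot be told apart from harvest and fixation, and no p-value is given. All intervals are 95% intervals for counting error only.

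The septum lies between the lateral ventricles. Its lateral division is made mostly of GABA-releasing projection neurons that link the hippocampus with the hypothalamus and midbrain, while the medial division holds cholinergic, GABA and glutamate neurons. Zic family zinc finger transcription factors mark the septal primordium during development and remain active in many adult septal neurons. Trpc4 forms a cation channel opened downstream of G protein-coupled receptors and is known for strong expression in lateral septum. Ano1 is a calcium-activated chloride channel and Prdm16 a zinc finger regulator of transcription. The labels give no dissection of the septum, so the name rests on these genes.

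Zic1 and Zic4 are neighbouring genes on chromosome 9, and the rule counts both. In the GENCODE annotation of GRCm38, Zic1 covers chr9:91358058-91365810 on the minus strand and Zic4 covers chr9:91362413-91389348 on the plus strand, so their annotated spans overlap. The strand setting used in counting is not given in the sources used here, and reads from the shared stretch may be assigned to either gene. The 250 bases before each RefSeq start site (GRCm38.p6) are shown because the genes lie beside each other and the genes were detected together in many nuclei. Capitals mark each CG, which reads the same on both strands.
Zic1: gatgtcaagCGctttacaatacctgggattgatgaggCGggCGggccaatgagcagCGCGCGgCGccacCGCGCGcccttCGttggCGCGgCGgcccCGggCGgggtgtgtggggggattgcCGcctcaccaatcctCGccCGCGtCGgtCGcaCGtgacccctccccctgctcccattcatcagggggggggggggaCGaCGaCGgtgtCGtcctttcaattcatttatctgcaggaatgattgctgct
Zic4: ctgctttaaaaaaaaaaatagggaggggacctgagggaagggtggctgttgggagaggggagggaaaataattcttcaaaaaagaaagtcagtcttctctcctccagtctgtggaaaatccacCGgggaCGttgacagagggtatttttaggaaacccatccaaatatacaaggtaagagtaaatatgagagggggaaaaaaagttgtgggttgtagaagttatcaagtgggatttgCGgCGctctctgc

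The Zic1 window (chr9:91365769-91366018, minus strand) holds 27 CG and is 66% G or C. The Zic4 window (chr9:91368722-91368971, plus strand), which falls inside the longer GENCODE span of Zic4, holds 4 CG and is 44.4% G or C. Among 32851 RefSeq windows of the same length the median is 6 CG, 8.56% hold at least 27 and 62.2% at least 4, so the Zic1 window is in the CG-rich tail and the Zic4 window is not. Over all nuclei, Zic4 was detected in 49.1%, 31.0%, 39.7% and 29.5% of the nuclei with Zic1, against 6.29%, 3.12%, 4.74% and 3.31% of all nuclei. The parts of depth and of the shared stretch in these shares were not tested.

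Each library had 7650, 17862, 10843 and 14483 deposited barcodes with 64312917 to 82408017 UMIs per library. Libraries shared between 61 and 209 kept barcodes per pair, and no septal-type barcode was shared. Septal-type nuclei were deeper than the rest in each library. Their median depth was 10628, 4844, 7370 and 5214 UMIs per nucleus, against 8206.5, 3141, 6513 and 4000.5 in other nuclei. Because the rule asks for several genes at once, its yield moves with depth, and shares are given with the deposited UMIs and after each nucleus was thinned to 2000 UMIs.

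Septal-type nuclei took a larger share of the in vivo libraries. The rule found 367 nuclei in the in vivo methanol library (4.80%, 4.33 to 5.30) and 485 in the in vivo unfixed library (2.72%, 2.48 to 2.97). The post-mortem methanol library gave 141 nuclei (1.31%, 1.10 to 1.54) and the post-mortem unfixed library 98 (0.685%, 0.557 to 0.835). After thinning, which left out 1474, 5995, 2307 and 4044 shallower nuclei, the shares were 1.86% and 1.79% in the in vivo methanol and in vivo unfixed libraries, against 0.141% and 0.244% in the post-mortem methanol and post-mortem unfixed ones. The in vivo shares were thus above the post-mortem shares within both fixations on either count. At matched depth the methanol and unfixed shares of the in vivo arm had overlapping intervals (1.54 to 2.23 and 1.56 to 2.04), and so did those of the post-mortem arm (0.0731 to 0.247 and 0.158 to 0.360).

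**Figure D1:**
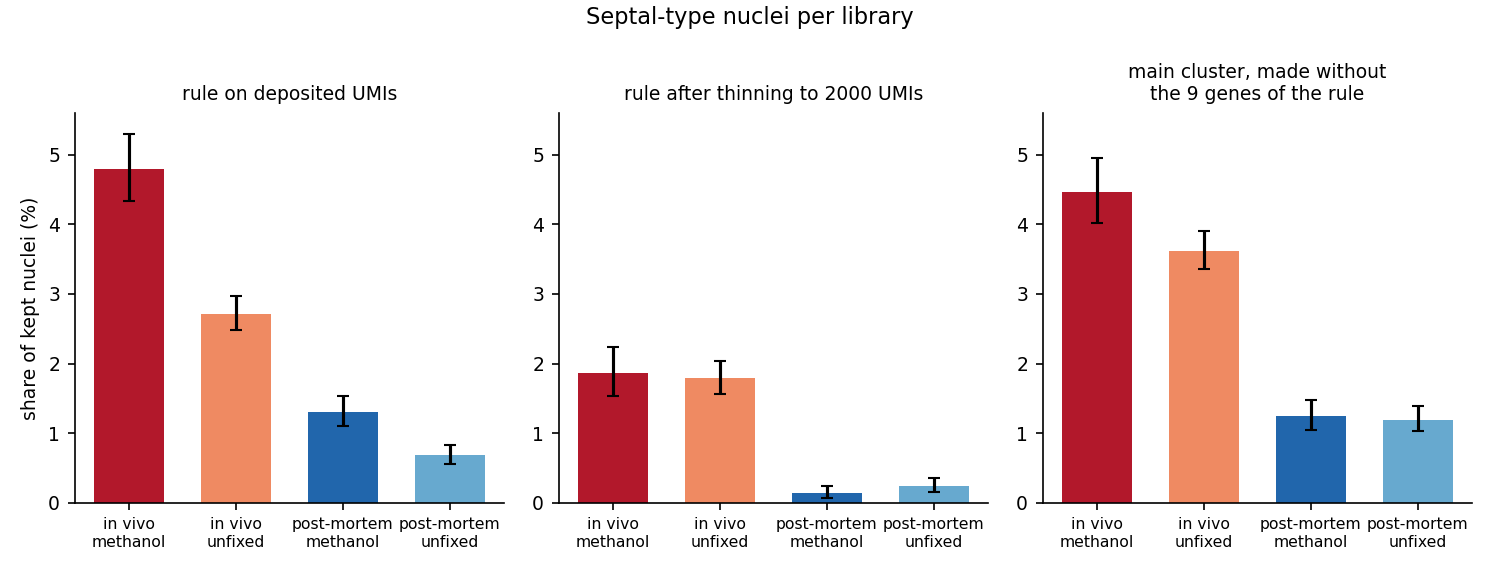
Share of kept nuclei (percent, with 95% exact binomial intervals) in each of the 4 libraries, by the rule on deposited UMIs, by the rule after thinning to 2000 UMIs, and by the cluster that holds most septal-type nuclei. On the 3 measures drawn, the last from the finer clustering, both in vivo bars stand above both post-mortem bars.

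Clustering of all nuclei without the 9 rule genes was used to see whether these nuclei form a single kind. At the finer of 2 resolutions, chosen after seeing the data, 62 clusters were found and 1 of them, the main cluster below, held 761 of the 1091 septal-type nuclei (69.8%). It took 73.6%, 78.1%, 45.4% and 49% of the septal-type nuclei of the 4 libraries. At this resolution the share inside was lower in both post-mortem libraries than in both in vivo ones. At the coarser resolution 57.2% lay in a large cluster led by Prlr and Baiap3, which took 55.3%, 54.8%, 66.0% and 63.3% of the septal-type nuclei, and 23.4% in a small one led by Ano1 and Col6a3, which took 24.0%, 29.3%, 10.6% and 10.2%.

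The main cluster held 1295 nuclei, of which 58.8% met the rule. The 534 that did not were shallower, with medians of 6012, 3000, 4859 and 3442 UMIs. As a share of all nuclei the main cluster came to 4.47% (4.02 to 4.96) and 3.62% (3.35 to 3.91) in the in vivo methanol and in vivo unfixed libraries, against 1.25% (1.05 to 1.48) and 1.20% (1.02 to 1.39) in the post-mortem methanol and post-mortem unfixed libraries. The main cluster was picked because it holds most nuclei that meet the rule, so this order is not separate from that of the rule. The coarser clusters differed in their order. The one led by Prlr and Baiap3, of which 10.4% met the rule, took 9.60% and 8.46% of the in vivo methanol and in vivo unfixed libraries, against 15.6% and 14.3% of the post-mortem methanol and post-mortem unfixed ones. The one led by Ano1 and Col6a3, of which 83.6% met the rule, took 1.24% and 1.008% of the in vivo methanol and in vivo unfixed libraries, against 0.139% and 0.105% of the post-mortem methanol and post-mortem unfixed ones.

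The other 330 septal-type nuclei were spread over 39 clusters. The largest portion, 100 nuclei, lay in a cluster led by Prlr, Baiap3 and Trh, with Oxt, Sim1 and Avp also among its leading genes. This cluster took 5.18%, 3.71%, 29.1% and 22.4% of the septal-type nuclei, so the septal name is least secure for this portion. Another 41 lay in a cluster in which Scrublet called 90.0% of nuclei doublets (droplets with more than 1 nucleus), 19 in a cluster led by Lef1 and Tcf7l2, and 15 in a cluster led by the cholinergic genes Slc5a7 and Chat. Scrublet called 1.85%, 6.33%, 1.56% and 6.25% of the septal-type nuclei in the main cluster doublets, against 50.5%, 61.3%, 22.1% and 28% of those outside it. Nuclei inside were also shallower, with medians of 9852, 4732, 6855.5 and 4632 UMIs, against 14565, 5932, 9449 and 6755.5 UMIs outside.

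**Figure D2:**
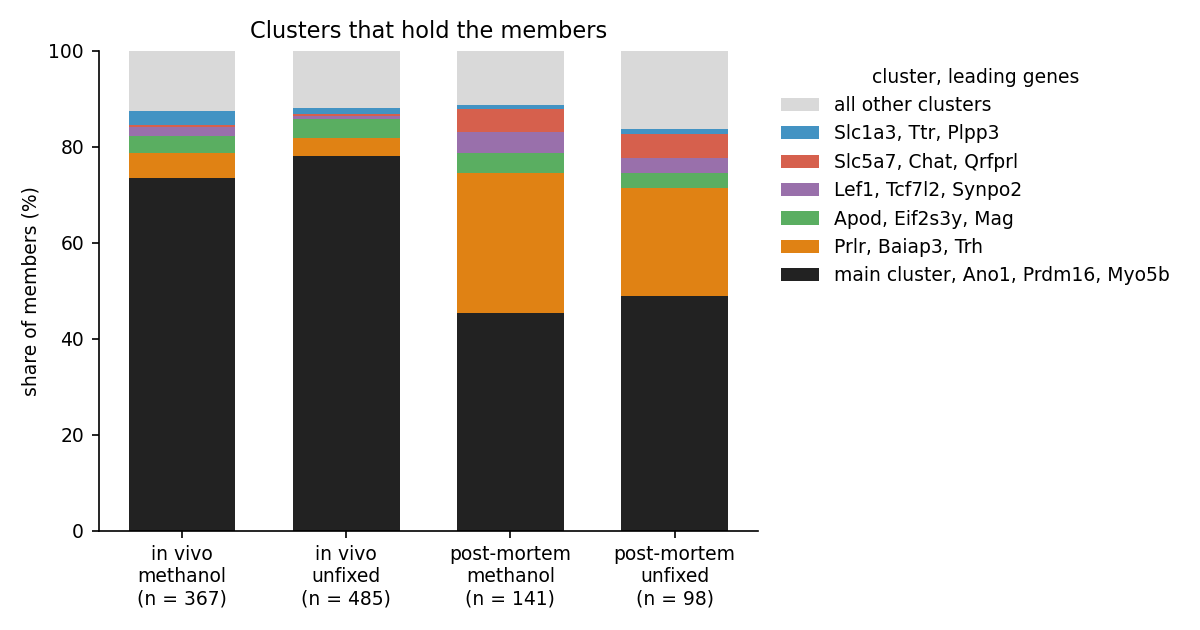
Percent of the septal-type nuclei of each library found in the main cluster and in the other clusters, each named by its leading genes. The main cluster takes 73.6% and 78.1% of the in vivo methanol and in vivo unfixed nuclei and 45.4% and 49% of the post-mortem methanol and post-mortem unfixed ones.

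At the edge of the rule, 22.9%, 36.9%, 53.2% and 55.1% of the septal-type nuclei had exactly 4 of the 9 genes. Of these, 51.2%, 68.7%, 26.7% and 37.0% were in the main cluster. Just outside, 143, 208, 187 and 139 nuclei had 3 of the genes, and 21%, 40.9%, 10.2% and 20.9% of them were in the main cluster. The share in the main cluster was thus lower with 3 genes than with 4 in each library, and the boundary left out some main cluster nuclei. Whether these nuclei form a graded population was not tested. A further 44, 4, 33 and 6 nuclei met the gene count but had more than 1 Slc17a7 UMI, and 4, 30, 9 and 10 met it without Trpc4.

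Levels of the 9 rule genes are given as a description, since the nuclei were chosen by these values. Levels are in CPM, the counts of a gene per 1000000 UMIs summed over the nuclei of a library. Trpc4 stood at 694, 660, 441 and 444 CPM in septal-type nuclei, against 115, 117, 86.9 and 68.8 CPM in 10272 other GABA nuclei (at least 2 UMIs of Gad1 and Gad2 together and at most 1 of Slc17a7). Zic1 stood at 118, 135, 127 and 151 CPM against 8.53, 7.85, 10.6 and 8.94 CPM, and Zic4 at 104, 131, 113 and 125 CPM against 4.72, 5.80, 6.85 and 6.89 CPM. Both Zic genes had similar levels in the 4 libraries, whereas Trpc4 was lower in both post-mortem libraries.

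Prdm16 stood at 240, 355, 148 and 239 CPM in septal-type nuclei, against 6.32, 18.8, 7.0 and 8.72 CPM in other GABA nuclei. Ano1 stood at 260, 390, 139 and 159 CPM against 6.83, 15.6, 5.85 and 9.40 CPM. Both genes were highest in the in vivo unfixed library in both kinds of nuclei. Other GABA nuclei can include main cluster nuclei that missed the rule, of which the libraries held 72, 268, 71 and 123. How many of these had enough Gad1 and Gad2 UMIs was not counted, and their part in these levels was not tested. Myo5b, a myosin motor of recycling endosomes, stood at 415, 538, 167 and 244 CPM in septal-type nuclei and at 36.6, 56.7, 29.1 and 34.9 CPM in other GABA nuclei.

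The remaining rule genes were detected in fewer nuclei. Cpa6, an extracellular carboxypeptidase, was found in 32.2%, 30.1%, 27.7% and 27.6% of septal-type nuclei. The RFamide peptide receptor gene Npffr1 was found in 40.6%, 28.7%, 18.4% and 15.3%, and the collagen VI chain gene Col6a3 in 24.5%, 19.8%, 9.93% and 6.12%. Detection of Npffr1 and Col6a3 was thus lowest in the post-mortem libraries, in which fewer nuclei lay in the main cluster. Zic1 was detected in 72.8%, 51.5%, 70.9% and 69.4% of septal-type nuclei, against 1.82%, 1.62%, 1.86% and 1.45% of oligodendrocyte-type nuclei. These serve as the background of free RNA and had a median depth of 1600, 1315, 1486 and 1598 UMIs. Detection of Zic1 helped choose the septal-type nuclei, which are also deeper, so the difference is no evidence of its expression.

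For Trpc4 and Ano1 the libraries differed less within the main cluster. Trpc4 in septal-type nuclei of the main cluster stood at 872, 745, 765 and 689 CPM, against 389, 440, 281 and 288 CPM in those outside it. Ano1 stood at 342, 444, 232 and 223 CPM inside and at 121, 251, 93.4 and 118 CPM outside. Every rule gene had a higher level inside than outside in each of the 4 libraries.

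**Figure D3:**
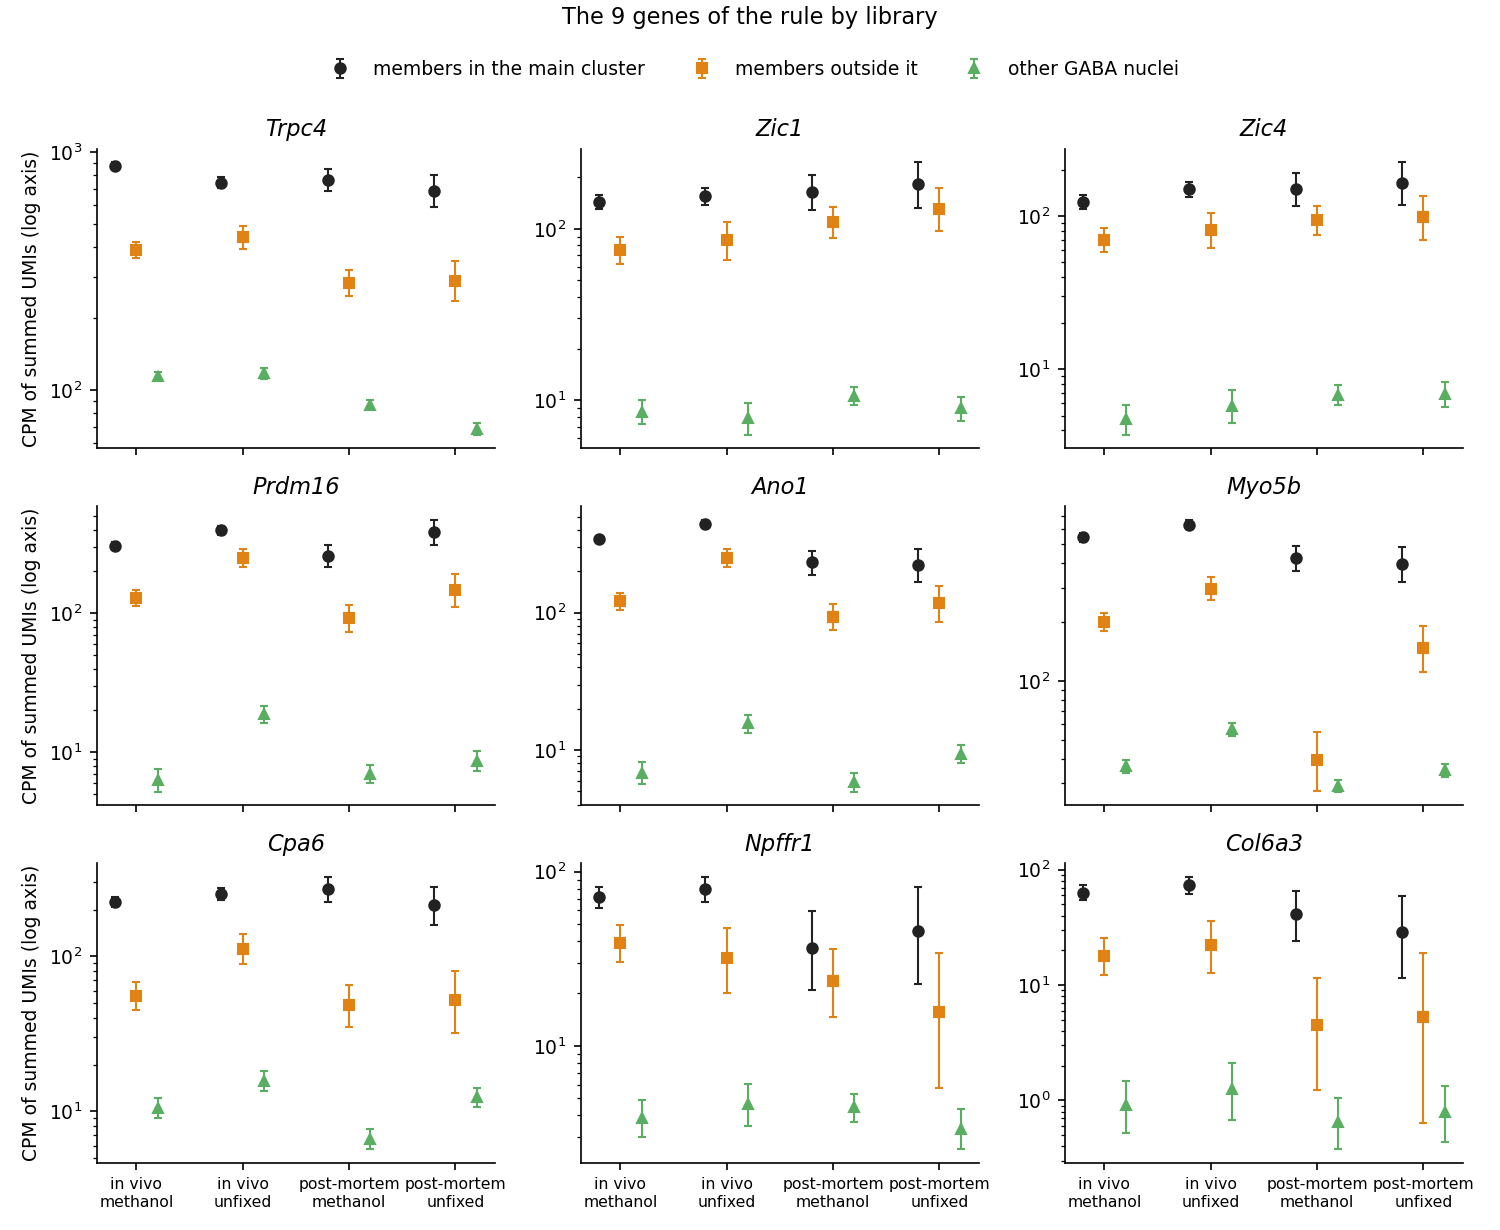
Level (CPM, log axis, with 95% counting intervals) of the 9 rule genes in septal-type nuclei of the main cluster, in septal-type nuclei outside it and in other GABA nuclei of the 4 libraries. In all 9 panels the main cluster lies above the nuclei outside it.

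Transmitter genes were not part of the rule apart from Slc17a7. At least 1 UMI of Gad1, Gad2 or Slc32a1, the GABA synthesis and vesicle transport genes, was found in 96.2%, 82.1%, 88.7% and 83.7% of septal-type nuclei, against 14.5%, 18.2%, 16.3% and 24.7% of oligodendrocyte-type nuclei. Thinned to 2000 UMIs the shares were 62.3%, 55.9%, 50.4% and 57.7% in septal-type nuclei and 17.2%, 23.9%, 22.3% and 25.2% in oligodendrocyte-type nuclei. Most septal-type nuclei thus carried GABA genes in every library. Slc17a6, the vesicular glutamate transporter of subcortical neurons, was found in 5.18%, 1.24%, 12.1% and 9.18% of septal-type nuclei, and in 0.370%, 0.528%, 0% (0 of 64 nuclei, which allows a share of up to 4.69%) and 2.08% of those in the main cluster, against 2.53%, 1.03%, 3.18% and 1.91% of oligodendrocyte-type nuclei.

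Chat or Slc5a7, the acetylcholine synthesis and choline uptake genes, were found in 5.45%, 3.30%, 13.5% and 12.2% of septal-type nuclei, against 0.607%, 0.734%, 1.5% and 2.54% of oligodendrocyte-type nuclei. In the main cluster the shares were 4.07%, 2.37%, 7.81% and 6.25%, and outside it 9.28%, 6.6%, 18.2% and 18.0%. Mog, Mag or Mobp, the myelin genes, were found in 11.7%, 12.2%, 12.1% and 15.3% of septal-type nuclei, against 9.82%, 12.6%, 13.5% and 16.2% of other GABA nuclei. After thinning to 2000 UMIs Chat or Slc5a7 were found in 1.12%, 1.62%, 3.13% and 2.08% of the septal-type nuclei in the main cluster, against 2.06%, 2.88%, 14.3% and 12.2% of the deeper ones outside it. The shares with these genes were thus lower inside, with few nuclei behind each in vivo value, and the myelin gene shares of septal-type and other GABA nuclei lay close to each other.

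Other GABA nuclei were the nearest comparison for the genes that the rule did not use. The rule and the nuclei share their source libraries, so these ratios describe the chosen nuclei and are not a test. A gene was called where its levels differed at least 2-fold in the same direction in all 4 libraries, at a mean of at least 10 CPM and at least 50 UMIs in all. Of 9768 genes, 93 (0.952%) were higher and 106 (1.09%) lower in septal-type nuclei. Zic2 and Zic5, a kinase gene, chloride and potassium channel genes and further zinc finger factor genes were among the higher genes, and striatal projection neuron genes among the lower ones. Most genes below were named for large ratios in all 4 libraries. That choice favours values without overlap between the 2 kinds of nuclei, so a lack of overlap is description and not a separate result.

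Among transcription factors, Zic5 stood at 27.3, 18.7, 18.8 and 19.2 CPM in septal-type nuclei, against 1.76, 0.982, 1.38 and 1.14 CPM in other GABA nuclei. The log2 ratios were 3.93 (3.37 to 4.57), 4.21 (3.29 to 5.35), 3.78 (2.98 to 4.55) and 4.10 (2.91 to 5.18). Zic2, the neighbour of Zic5 on chromosome 14, stood at 36.7, 22.2, 28.6 and 20.8 CPM against 1.31, 2.32, 2.26 and 1.94 CPM. The septal-type values of both genes lay above all 4 values of other GABA nuclei.

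Zfp423 and Zfp521 encode related multi-zinc-finger factors. Zfp423 stood at 138, 153, 96.4 and 119 CPM in septal-type nuclei, against 26.4, 30.8, 23.1 and 22.6 CPM in other GABA nuclei. Zfp521 stood at 213, 184, 207 and 165 CPM against 48.5, 44.7, 51.0 and 42.3 CPM. The log2 ratios, for which both genes were named, ran between 2.07 and 2.40 for Zfp423 and between 1.97 and 2.14 for Zfp521. Otx2os1, a non-coding gene named for its place opposite Otx2, stood at 19.97, 23.7, 48.2 and 72.1 CPM against 2.96, 3.84, 4.40 and 5.98 CPM, and its septal-type values were higher in both post-mortem libraries than in both in vivo ones.

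Prkcd, protein kinase C delta, stood at 105, 137, 33.9 and 40.1 CPM in septal-type nuclei, against 3.53, 10.6, 1.49 and 3.76 CPM in other GABA nuclei. The log2 ratios were 4.88, 3.68, 4.50 and 3.43. It was detected in 57.5%, 48.0%, 22.7% and 19.4% of septal-type nuclei, against 2.23%, 2.20%, 1.5% and 0.999% of oligodendrocyte-type nuclei. Prkcd was thus higher than in other GABA nuclei of each library, and its septal-type level was lower in both post-mortem libraries than in both in vivo ones. Dgkg, a diacylglycerol kinase, which uses up the lipid that activates protein kinase C, stood at 910, 1169, 355 and 481 CPM against 183, 265, 141 and 162 CPM, with log2 ratios of 2.31, 2.14, 1.34 and 1.57.

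Channel genes outside the rule included Clic4 and Kcng2. Clic4, an intracellular chloride channel protein gene, stood at 128, 147, 69.3 and 88.2 CPM in septal-type nuclei, against 13.9, 19.46, 10.2 and 12.8 CPM in other GABA nuclei. Kcng2, a modifying potassium channel subunit, had log2 ratios of 2.12, 2.05, 2.21 and 2.30. Both genes were higher in septal-type nuclei of each library, with no overlap of values for Clic4.

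Of receptor genes, Crhr2, the receptor for urocortins, stood at 21.7, 22.2, 12.8 and 27.2 CPM in septal-type nuclei, against 4.95, 5.62, 4.36 and 5.18 CPM in other GABA nuclei, with log2 ratios of 2.13, 1.98, 1.59 and 2.43. Htr7, a serotonin receptor gene, stood at 80.1, 75.3, 76.1 and 73.7 CPM against 32.6, 27.0, 33.3 and 28.7 CPM, with log2 ratios of 1.30, 1.48, 1.20 and 1.38. The Htr7 values were nearly level across libraries in both kinds of nuclei. Of 19 measured amine and steroid receptor genes Htr7 was the only one called higher, and Adra1a and Chrm1 were called lower.

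Among structural and enzyme genes, Ptpn3, a protein tyrosine phosphatase, stood at 175, 234, 88.9 and 119 CPM in septal-type nuclei, against 24.4, 38.1, 19.0 and 22.7 CPM in other GABA nuclei. Col9a3, a collagen IX chain gene, stood at 89.7, 131, 39.2 and 72.1 CPM against 10.5, 19.4, 7.77 and 16.4 CPM. Both genes were highest in the in vivo unfixed library. The smallest log2 ratio of the 4 was between 1.78 and 2.58 for Styk1, Grid2ip, Nox4, Whrn, Fgd5, Mob3b, Ddo, Palmd and Myo10, further higher genes named by rule, with Nox4, an NADPH oxidase gene, at 25.6, 24.9, 33.9 and 33.7 CPM in septal-type nuclei.

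The genes furthest below other GABA nuclei included several of striatal medium spiny neurons. Rarb, a retinoic acid receptor gene, stood at 103, 114, 104 and 141 CPM in septal-type nuclei, against 698, 731, 585 and 774 CPM in other GABA nuclei. Rgs9, which speeds the switching-off of G proteins, stood at 57.3, 78.8, 72.3 and 97.8 CPM against 346, 384, 334 and 515 CPM. The adenosine receptor gene Adora2a had log2 ratios of -2.70, -2.37, -2.62 and -2.40. Of 15 medium spiny neuron genes 10 were called lower and 14 were lower in all 4 libraries, the latter count given without the share over all tested genes. The median log2 ratios were -2.55, -1.28, -1.72 and -1.47, against 0.03, -0.00, 0.12 and 0.14 over all tested genes.

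Other genes lower in septal-type nuclei belonged to several families. Sox6, a transcription factor gene, stood at 57.8, 33.7, 55.0 and 17.6 CPM in septal-type nuclei, against 215, 195, 227 and 163 CPM in other GABA nuclei. Slc4a4, a sodium bicarbonate cotransporter gene, stood at 79.4, 75.7, 88.9 and 75.3 CPM against 376, 329, 394 and 396 CPM. No septal-type value of either gene reached the values of other GABA nuclei. Egfr, the epidermal growth factor receptor gene, had no UMI in the post-mortem unfixed septal-type nuclei, where it was at least 5.73-fold lower than in other GABA nuclei with a floor of 3 counts in that library, and Tgfa, which encodes one of its ligands, had log2 ratios of -2.94, -2.33, -2.01 and -2.39. Sh3rf2, Car12 and Ppp1r1b completed the 10 lowest genes.

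Septal gene lists did not move as a whole against other GABA nuclei. Of 13 measured septal neuron genes 5 were called higher (Zic2, Zic5, Crhr2, Dgkg and Ndnf) and 1 lower (Foxp2), with median log2 ratios of 0.11, -0.31, -0.13 and -0.42. The transcription factor gene Foxp2 stood at 242, 167, 166 and 171 CPM in septal-type nuclei, against 522, 397, 475 and 392 CPM in other GABA nuclei. None of 11 GABA neuron genes and none of 16 ionotropic glutamate receptor genes was called. Of 10 neuropeptide precursor genes none was called higher and Npy, Pdyn and Penk were called lower. Against 5088 medium spiny type nuclei (at least 3 of 6 striatal genes detected) more genes were called, 426 higher (4.44%) and 258 lower (2.69%) of 9592.

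**Figure D4:**
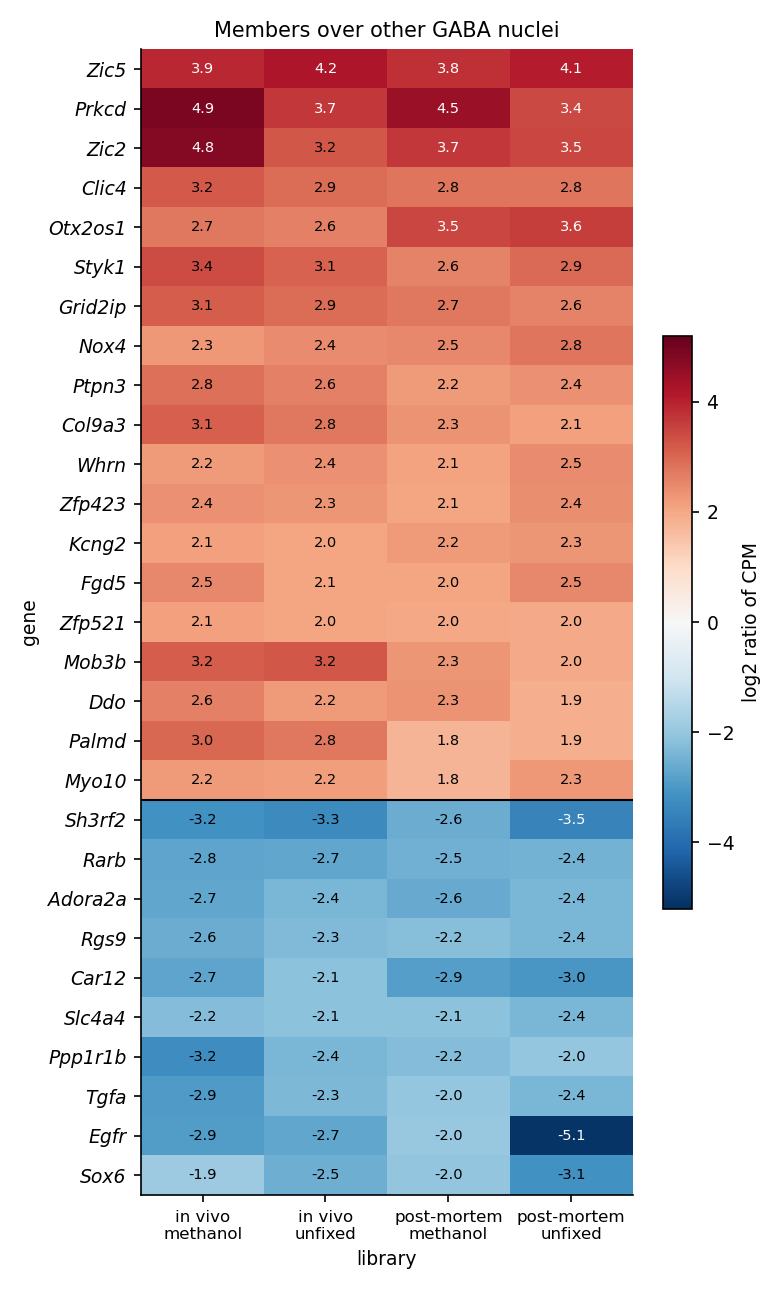
Log2 ratio of septal-type over other GABA nuclei in each of the 4 libraries for higher and lower genes named by rule. Each higher gene is above 1 and each lower gene below -1 in all 4 libraries.

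Against all other nuclei, 123 of 9832 genes (1.25%) were called higher and 154 (1.57%) lower in septal-type nuclei. Igfbpl1, a gene of the insulin-like growth factor binding protein family better known from migrating neuroblasts, stood at 72.8, 83.8, 39.2 and 67.3 CPM in septal-type nuclei, against 10.9, 10.0, 4.28 and 5.25 CPM in other nuclei. Its values did not overlap between septal-type and other nuclei, which its naming by large ratios in all 4 libraries favours. Of the GABA neuron genes 4 of 11 were called higher (Dlx1, Dlx5, Dlx6 and Sp9), and all 8 measured oligodendrocyte genes were called lower. Each of the 60 named gene and comparison pairs, 20 higher and 10 lower against either kind of nuclei, was also called when only main cluster nuclei were used. These are 761 of the same 1091 nuclei, so the calls are not separate.

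Septal-type nuclei of the main cluster could be set against those outside it only as a description, since clusters are built from the same genes, and the genes named here were chosen after their values were seen. Of 9827 genes 18 (0.183%) were higher and 125 (1.27%) lower inside. Ano2, the olfactory-type relative of Ano1, stood at 285, 312, 143 and 177 CPM inside and at 65.1, 104, 19.1 and 26.2 CPM outside. Tcf7l2, a transcription factor gene prominent in thalamus, stood at 1.02, 1.59, 0 and 0 CPM inside and at 70.3, 33.2, 73.2 and 36.7 CPM outside. Adarb2, a gene of caudal ganglionic eminence interneurons, stood at 130, 58.1, 56.9 and 4.13 CPM inside and at 791, 339, 567 and 582 CPM outside. The nuclei outside thus carried genes of several other neuron kinds.

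The main cluster itself had an inner division, found after seeing the data, as were the genes named for it. At the coarser resolution 255 of its 761 septal-type nuclei (88, 142, 15 and 10) fell in the cluster led by Ano1 and Col6a3. In this portion Ndnf, which encodes a secreted neurotrophic protein, had 128 and 65 UMIs in the in vivo methanol and in vivo unfixed libraries, against 9 and 4 UMIs in the other portion, with log2 ratios of 4.61 (3.71 to 5.85) and 4.57 (3.30 to 6.65). The post-mortem libraries held too few such nuclei for ratios. The transcription factor gene Zeb2 was higher in the Ndnf portion with log2 ratios of 3.05 and 2.58, and Igfbpl1 with 3.03 and 2.59.

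Genes lower in the Ndnf portion were led by the peptide precursor gene Cartpt, whose smaller log2 ratio of the in vivo libraries was -4.65. The transcription factor gene Foxp2 followed at -3.60, and Slit2 stood at -3.28. Slit2, which encodes a repulsive guidance ligand, had 5 and 17 UMIs in the Ndnf portion of the in vivo methanol and in vivo unfixed libraries, against 411 and 278 UMIs in the other portion. Foxp2 had 27 and 7 UMIs against 602 and 271 UMIs. Of the rule genes, Trpc4 stood at 901 and 693 CPM in the Ndnf portion of the in vivo methanol and in vivo unfixed libraries, against 856 and 776 CPM in the other portion. Col6a3 stood at 131 and 138 CPM in the Ndnf portion of the same libraries, against 25.9 and 33.2 CPM in the other portion, and Cpa6 at 390 and 465 CPM, against 133 and 123 CPM. The portions were thus near in Trpc4 and far apart in Col6a3 and Cpa6. Of 9093 genes 120 (1.32%) were higher and 233 (2.56%) lower in the Ndnf portion in both in vivo libraries.

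Fixation was compared within each harvest, as methanol over unfixed septal-type nuclei. Of 9816 genes, 107 (1.09%) were called higher and 172 (1.75%) lower in methanol in both harvests. Ribosomal protein genes were among the higher ones, and transcripts that lie opposite other genes among the lower ones. The 9 rule genes, which are left out of these counts, had log2 ratios between -0.70 (Prdm16, post-mortem) and 0.15 (Col6a3, post-mortem).

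Mt3, a metallothionein gene of brain, stood at 70.0 CPM in the in vivo methanol nuclei, against 22.2 CPM in the in vivo unfixed ones, and at 79.8 CPM in the post-mortem methanol nuclei, against 25.6 CPM in the post-mortem unfixed ones. The log2 ratios were 1.65 (1.25 to 2.09) in vivo and 1.60 (0.87 to 2.50) post-mortem, and in other GABA nuclei 1.16 and 1.25. Pgrmc1, a haem-binding membrane protein gene, stood at 78.2 CPM in the in vivo methanol nuclei, against 25.2 CPM in the in vivo unfixed ones, and at 122 CPM in the post-mortem methanol nuclei, against 36.9 CPM in the post-mortem unfixed ones. In both genes, which were named for these ratios, both methanol libraries lay above both unfixed ones.

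The remaining higher genes named by rule were Npsr1, Snhg8, Rps25, Cartpt, Rtl8b, Pgam1, Tram1l1 and Rhob. Pgam1, a glycolytic enzyme gene, stood at 29.0 CPM in the in vivo methanol nuclei, against 9.18 CPM in the in vivo unfixed ones, and at 36.2 CPM in the post-mortem methanol nuclei, against 4.81 CPM in the post-mortem unfixed ones. Cartpt, which encodes the CART peptide precursor, had log2 ratios of 1.68 in vivo and 2.34 post-mortem over all septal-type nuclei, and of 0.90 and 0.28 in the main cluster. In the main cluster, where 72 of 9367 genes (0.769%) were called higher and 151 (1.61%) lower in methanol, 6 of the 10 genes were called, and Npsr1, Cartpt, Rtl8b and Rhob were not.

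Ribosomal protein genes were higher in methanol in most cases. Of 72 measured, 15 were called higher and 66 were higher in both harvests, with median log2 ratios of 1.24 in vivo and 0.64 post-mortem, against 0.01 and -0.04 over all tested genes. Rpl13, a large subunit protein gene, stood at 54.8 CPM in the in vivo methanol nuclei, against 19.1 CPM in the in vivo unfixed ones, and at 69.3 CPM in the post-mortem methanol nuclei, against 30.5 CPM in the post-mortem unfixed ones. In other GABA nuclei 7 of 70 ribosomal protein genes were called higher, among 60 of 9692 genes (0.619%) called higher and 218 (2.25%) called lower there. Nuclear genes of the respiratory chain followed with 10 of 81 called higher and 62 higher in both harvests. None of 14 immediate early genes was called, and 11 were higher and 1 lower in both harvests. The counts higher or lower in both harvests are given without the share over all tested genes, so they only describe these lists. Their median log2 ratios were 0.34 in vivo and 0.98 post-mortem, and in the main cluster 1 of the 14 was called higher.

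Among the lower genes, Cers1, which encodes a ceramide synthase, stood at 13.3 CPM in the in vivo methanol nuclei, against 60.4 CPM in the in vivo unfixed ones, and at 13.6 CPM in the post-mortem methanol nuclei, against 51.3 CPM in the post-mortem unfixed ones. The log2 ratios were -2.18 and -1.90, and in other GABA nuclei -2.18 and -2.46. Glp2r, the receptor gene for glucagon-like peptide 2, stood at 24.5 CPM in the in vivo methanol nuclei, against 98.3 CPM in the in vivo unfixed ones, and at 18.8 CPM in the post-mortem methanol nuclei, against 75.3 CPM in the post-mortem unfixed ones. Both genes were nearly as far apart in other GABA nuclei, where Glp2r had log2 ratios of -1.75 and -1.56.

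Cers1 overlaps Upf1, and Glp2r overlaps Gas7, each on the opposite strand. Of the 172 lower genes 157 (91.3%) overlap an annotated gene on the opposite strand, against 40.4% of the genes tested and 33.6% of the higher genes. Of the 172, 126 (73.3%) are not protein coding, against 6.56% of the genes tested. The named lower genes included the non-coding Hectd2os, Srrm4os, Dtnbos and Lrp8os2, with log2 ratios between -2.15 and -1.52 over both harvests, and Rec114, Rsph14 and Epo. Without a stated counting strand, reads of such a gene and of its partner cannot be told apart.

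Of 3 measured microglia genes 2 were also called lower in methanol. Cx3cr1, a chemokine receptor gene of microglia, stood at 4.94 CPM in the in vivo methanol septal-type nuclei, against 15.7 CPM in the in vivo unfixed ones, and at 9.79 CPM in the post-mortem methanol nuclei, against 46.5 CPM in the post-mortem unfixed ones. P2ry12, a purine receptor gene of microglia, had log2 ratios of -1.08 in vivo and -1.99 post-mortem. Cx3cr1 overlaps Wdr48 and P2ry12 overlaps Med12l, each on the opposite strand. The 10 microglia genes together took 0.00915% and 0.00929% of the UMIs of the in vivo methanol and in vivo unfixed septal-type nuclei, and 0.0105% and 0.0189% of the post-mortem methanol and post-mortem unfixed ones, with at least 1 UMI of each gene in every library, and their part in the result was not tested.

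Harvest was compared within each fixation, as in vivo over post-mortem septal-type nuclei. Of 9816 genes, 77 (0.784%) were called higher and 113 (1.15%) lower in vivo under both fixations. In other GABA nuclei 6 genes (0.0619%) were called higher and 3 (0.0310%) lower. In library order there were 1854, 2434, 3048 and 2936 other GABA nuclei, against 367, 485, 141 and 98 septal-type nuclei. Ratios from fewer nuclei vary more by counting error and pass the fold threshold more easily. The counts of calls therefore cannot show whether harvest mattered more in septal-type nuclei, and equal numbers of nuclei were not tested. With median-of-ratios factors in place of library totals the septal-type calls were 120 higher and 68 lower. The median log2 ratio of all tested genes was -0.12 in the methanol pair and -0.19 in the unfixed pair with totals, against -0.02 and 0.01 with those factors. The higher genes named by rule included Col25a1, Adamtsl1 and Ntf3, and the lower ones Eif2s3y, Chat and Slc5a7. The share of septal-type nuclei in the main cluster differed between the harvests, so main cluster values are given beside the named ones. These do not match the makeup of the main cluster itself. Its Ndnf portion was 32.6%, 37.5%, 23.4% and 20.8% of its septal-type nuclei in library order, with overlapping intervals within each fixation. Mctp2, Met, Stac2 and Mob3b, named below, were also higher in that portion, and Adamtsl1 was a leading gene of its cluster. The part of this makeup was not tested. Of the rule genes, given as a description, Ano1 had log2 ratios of 0.90 in the methanol pair and 1.29 in the unfixed pair, and Zic1 of -0.11 and -0.16.

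Col25a1, a membrane collagen gene, stood at 1218 CPM in the in vivo methanol nuclei, against 201 CPM in the post-mortem methanol ones, and at 1129 CPM in the in vivo unfixed nuclei, against 332 CPM in the post-mortem unfixed ones. The log2 ratios were 2.60 and 1.76, and 2.10 and 1.91 in the main cluster, against 0.40 and 0.16 in other GABA nuclei. Adamtsl1, a secreted matrix protein gene, stood at 293 CPM in the in vivo methanol nuclei, against 43.7 CPM in the post-mortem methanol ones, and at 286 CPM in the in vivo unfixed nuclei, against 83.3 CPM in the post-mortem unfixed ones. Its log2 ratios were 2.73 (2.36 to 3.15) and 1.76 (1.37 to 2.21), and 3.04 and 1.12 in the main cluster, against 0.16 and 0.68 in other GABA nuclei. For both genes the difference was present in the main cluster alone.

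Ntf3, the neurotrophin 3 gene, had 131 UMIs (28.1 CPM) in the in vivo methanol nuclei, against 1 UMI (0.753 CPM) in the post-mortem methanol ones, a log2 ratio of 4.64 (2.72 to 10.54). It had 100 UMIs (38.2 CPM) in the in vivo unfixed nuclei and none in the post-mortem unfixed ones, and was at least 7.95-fold higher there with a floor of 3 counts in the library. Glp1r, the receptor gene for glucagon-like peptide 1, stood at 20.8 CPM in the in vivo methanol nuclei, against 5.27 CPM in the post-mortem methanol ones, and at 14.5 CPM in the in vivo unfixed nuclei, against no UMI in the post-mortem unfixed ones (at least 3.02-fold higher). Both genes were also called in the main cluster, where neither Glp1r in both post-mortem libraries nor Ntf3 in the post-mortem unfixed one had a UMI. There the bound for the unfixed pair was at least 3.97-fold for Ntf3, and for Glp1r at least 1.24-fold, which is under the 2-fold needed for a call.

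Nr3c2, the mineralocorticoid receptor gene, stood at 519 CPM in the in vivo methanol nuclei, against 197 CPM in the post-mortem methanol ones, and at 560 CPM in the in vivo unfixed nuclei, against 215 CPM in the post-mortem unfixed ones. The log2 ratios were 1.40 (1.22 to 1.59) and 1.38 (1.13 to 1.65), and 1.16 and 1.08 in the main cluster, against 0.13 and 0.36 in other GABA nuclei. The remaining higher genes named by rule were Mctp2, Met, Ptgfrn, Stac2, Mob3b and Heg1, and all but Met and Mob3b were called in the main cluster too, where Mctp2 had no post-mortem UMI and a bound of at least 1.79-fold in the unfixed pair. In the main cluster 83 of 9367 genes (0.886%) were called higher and 124 (1.32%) lower in vivo, and 30 of these higher genes (36.1%) were among the 77 called over all septal-type nuclei (39.0% of those). Of the 83, 9 had no UMI in a post-mortem library, and for 3 of these the bound was under 2-fold.

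Of the immediate early genes, which respond quickly to neuronal activity, 2 of 14 were called higher in vivo. Egr4 stood at 60.1 CPM in the in vivo methanol nuclei, against 23.3 CPM in the post-mortem methanol ones, and at 32.1 CPM in the in vivo unfixed nuclei, against 9.62 CPM in the post-mortem unfixed ones. Egr3 stood at 23.8 CPM in the in vivo methanol nuclei, against 10.5 CPM in the post-mortem methanol ones, and at 23.3 CPM in the in vivo unfixed nuclei, against 4.81 CPM in the post-mortem unfixed ones. The median log2 ratio of the 14 genes was 0.61 in the methanol pair and 0.88 in the unfixed pair over all septal-type nuclei, but 0.10 and 0.69 in the main cluster, where none was called.

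Of the 10 genes named as lower in vivo, 5 are genes of cholinergic neurons. Chat stood at 7.09 CPM in the in vivo methanol nuclei, against 75.3 CPM in the post-mortem methanol ones, and at 8.41 CPM in the in vivo unfixed nuclei, against 84.9 CPM in the post-mortem unfixed ones. Slc5a7 stood at 7.51 CPM in the in vivo methanol nuclei, against 92.6 CPM in the post-mortem methanol ones, and at 6.12 CPM in the in vivo unfixed nuclei, against 68.9 CPM in the post-mortem unfixed ones. All 5 measured cholinergic genes (Chat, Slc5a7, Slc17a8, Prima1 and Lhx8, a list drawn up after seeing these values) were called lower, with median log2 ratios of -3.40 in the methanol pair and -3.47 in the unfixed pair.

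The 6 listed cholinergic genes together, of which Slc18a3 had no UMI in the septal-type nuclei of any library, took 0.00301% and 0.00260% of the UMIs of the in vivo methanol and in vivo unfixed septal-type nuclei, against 0.0298% and 0.0287% in the post-mortem methanol and post-mortem unfixed ones. In the main cluster the sums were 0.00102% and 0.00100% in the in vivo methanol and in vivo unfixed libraries, against 0.00387% and 0.00206% in the post-mortem methanol and post-mortem unfixed ones. The sums inside the main cluster were at a lower level and were again lower in vivo. The post-mortem unfixed sum there rests on few UMIs, 2 of them from Chat. No interval was formed for the sums, so the unfixed pair is not read as a difference. The part of the share of nuclei outside the main cluster was not tested. Of the 10 lower genes named by rule only Eif2s3y was called in the main cluster, since Slc5a7, Prima1, Chat, Slc17a8, Oxt, Lhx8 and Oprd1 were below the level filter there and Tacr1 and Acly had 0 and 2 UMIs in the post-mortem unfixed nuclei of the main cluster and were not lower in that pair. Chat had 5 and 9 UMIs in the in vivo methanol and in vivo unfixed nuclei of the main cluster, against 8 and 2 UMIs in the post-mortem methanol and post-mortem unfixed ones. Oxt, the oxytocin gene, had 1 and 4 UMIs in the in vivo methanol and in vivo unfixed nuclei, against 58 and 6 UMIs in the post-mortem methanol and post-mortem unfixed ones.

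Eif2s3y, a Y-linked translation factor gene, had 2 and 1 UMIs in the in vivo methanol and in vivo unfixed septal-type nuclei, against 191 and 66 UMIs in the post-mortem methanol and post-mortem unfixed ones. The gene behaved alike in other nuclei, with 1.02 and 0.683 CPM in the in vivo methanol and in vivo unfixed libraries, against 123 and 83.3 CPM in the post-mortem methanol and post-mortem unfixed ones. Other Y-linked genes were present in all 4 libraries, with Uty at 106, 91.8, 178 and 152 CPM and Ddx3y at 31.6, 23.3, 57.2 and 43.3 CPM in septal-type nuclei. The Eif2s3y difference therefore held for the whole libraries and was not particular to septal-type nuclei.

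Genes lower in vivo in the main cluster as well included Isl1 and Tac1. Isl1, a LIM homeodomain factor gene, stood at 30.7 CPM in the in vivo methanol nuclei, against 77.6 CPM in the post-mortem methanol ones, and at 31.7 CPM in the in vivo unfixed nuclei, against 73.7 CPM in the post-mortem unfixed ones, with log2 ratios of -1.29 and -1.27 in the main cluster. Tac1, the substance P precursor gene, stood at 12.2 CPM in the in vivo methanol nuclei, against 41.4 CPM in the post-mortem methanol ones, and at 12.6 CPM in the in vivo unfixed nuclei, against 43.3 CPM in the post-mortem unfixed ones, with log2 ratios of -2.17 and -2.23 in the main cluster. Of the 113 lower genes 17 (15%) were called in the main cluster, where they made up 13.7% of the lower calls.

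**Figure D5:**
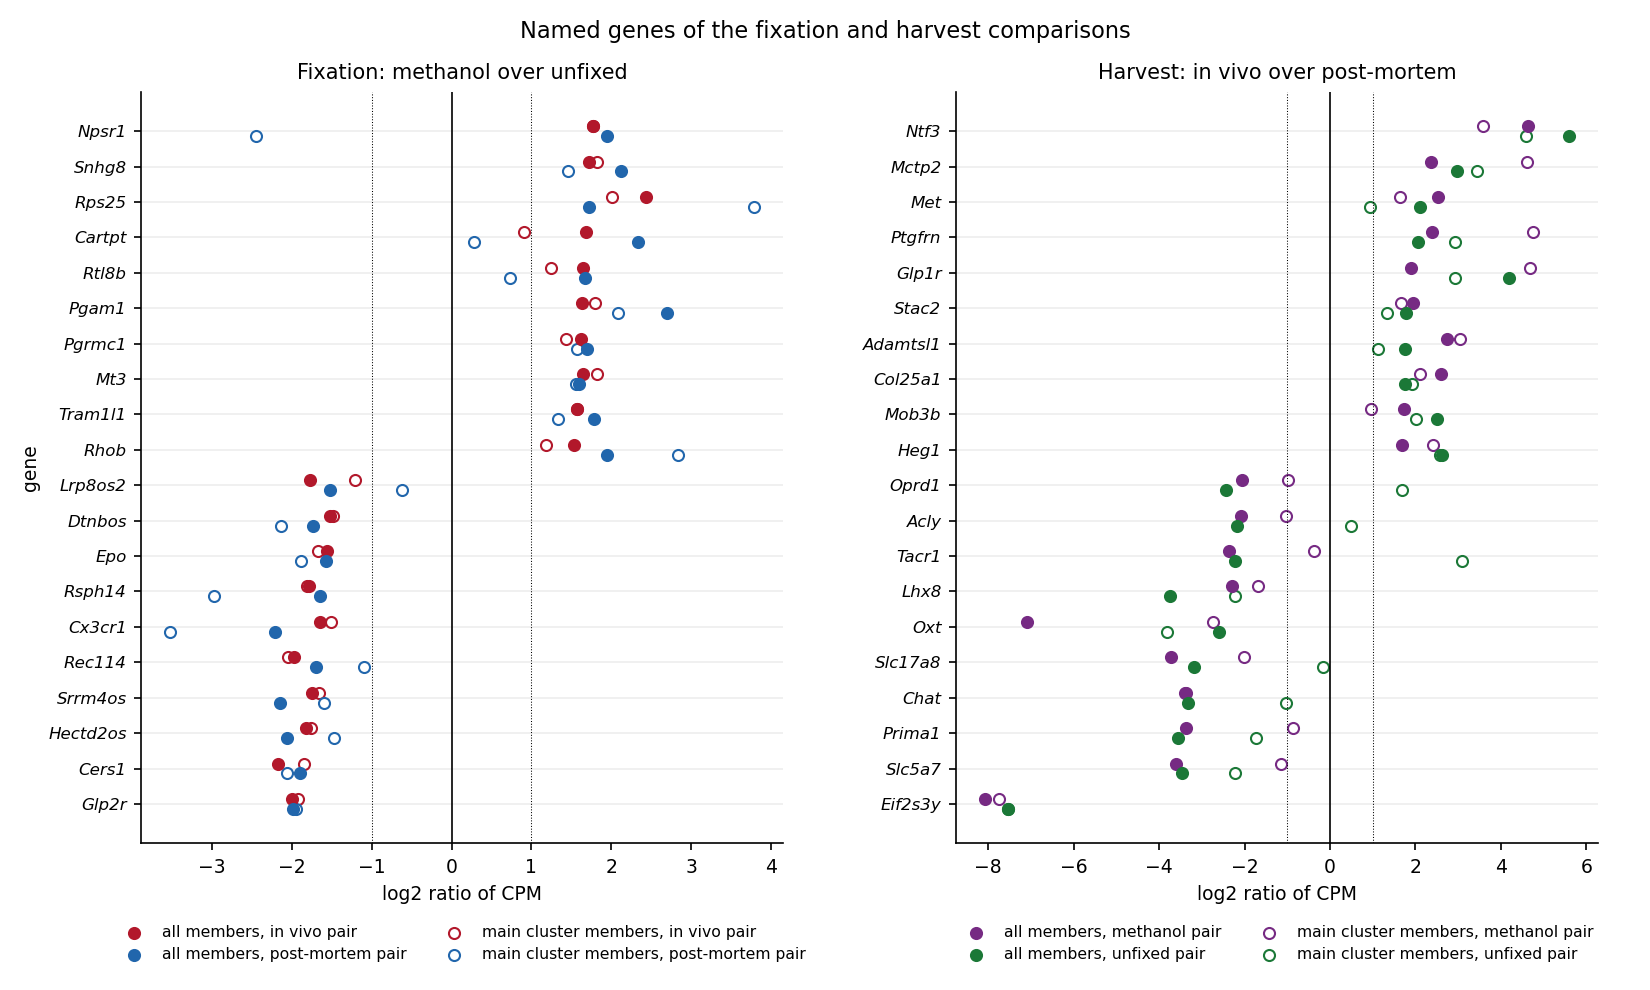
Log2 ratio of the genes named by rule for fixation (methanol over unfixed) and harvest (in vivo over post-mortem), with filled points for all septal-type nuclei, open points for those of the main cluster, colours for the pair and dotted lines at -1 and 1. Chat lies at -3.40 in the methanol pair and -3.32 in the unfixed pair over all septal-type nuclei.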

How the data were processed

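Single-nucleus 3' RNA libraries from mouse brain were counted by the authors, who deposited whole-number UMI counts per gene and barcode for each of the 4 libraries; mm10 is the build in the submitters' processing notes, and the counter, its version and its strand setting are not given in the sources used here. From these counts, nuclei were filtered and chosen as described above, UMIs were summed per library and kind of nucleus, and log2 ratios of CPM were formed with 0.5 counts added to each sum. Intervals are exact conditional or Clopper-Pearson intervals at 95%, and cover counting error only. With 1 library per group no test between groups was run. The members, the gene lists and the comparisons were chosen with earlier results of these data known.

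Other GABA nuclei had at least 2 UMIs of Gad1 and Gad2 together, medium spiny type nuclei at least 3 of 6 genes, and oligodendrocyte-type nuclei at least 4 of 7 genes. Doublets were scored with Scrublet in scanpy 1.11.5 at an expected rate of 6% and kept in the main values, and whether doublets had been removed before deposit is not given in the sources used here. Clusters came from Leiden (leidenalg 0.10.2) on 40 components of 1992 variable genes, 20 neighbours, at resolutions of 1 and 2, without the rule genes. Genes were named by rule: the 20 highest and 10 lowest by the smallest of 4 log2 ratios against other GABA and other nuclei, the 10 per direction by the smaller ratio for fixation and harvest, and called or leading genes of the lists. Predicted genes were counted and not named. A few other genes the rule took are not reported here. Python 3.11.15, SciPy 1.17.1, pandas 2.3.3 and matplotlib 3.10.9 were used, and the ratio calculation was tested on simulated data. Alternatives tried were thinning, doublet removal, other thresholds, scaling and leaving out each library. Sex was not in the labels used here.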

Additional observations from a re-analysis of the deposited data

Results flagged for a closer look

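In septal-type nuclei 2 highly expressed genes moved in opposite directions on fixation in the 2 harvests. Col25a1 had a methanol over unfixed log2 ratio of 0.11 in vivo and -0.72 post-mortem. Zfp804b had 0.10 in vivo and -0.41 post-mortem. Each ratio rests on 1 library per group, and the difference between harvests was not tested.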

How the results depend on the processing

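No paired analysis was possible because each group of fixation and harvest is 1 library; septal-type nuclei were set against others within each library. Of 1270 values of named genes under alternatives, 1125 stayed within the counting interval of the reported value, 135 moved outside it with the same sign and 10 changed sign. Leaving out each library gave 131 to 150 genes higher and 169 to 204 lower than other nuclei, and 100 to 117 higher and 115 to 138 lower than other GABA nuclei. Without doublets 235 genes were lower than other nuclei and 167 lower than other GABA nuclei. With the rule applied to nuclei thinned to 2000 UMIs, 161 genes were lower than other GABA nuclei, 72 lower in methanol, 119 higher in vivo and 237 lower in vivo. Of these, 75, 44, 21 and 7 were among the calls reported above, so few of the harvest calls recurred. That setting left 12 septal-type nuclei in the post-mortem methanol library and 25 in the post-mortem unfixed one. With main cluster nuclei alone, an alternative chosen after seeing the data, 195 genes were higher and 324 lower than other nuclei, and 169 higher and 251 lower than other GABA nuclei. Median-of-ratios factors gave 120 higher and 68 lower in vivo. A filter of 5 CPM and 20 UMIs gave 176 higher and 275 lower in methanol and 219 lower in vivo. No filter gave 5352 higher and 296 lower than other nuclei, 2580 and 172 against other GABA nuclei, 498 and 1842 in methanol, and 235 and 1981 in vivo.

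Shares of septal-type nuclei moved with the threshold. At least 1000 UMIs gave 3.25% in the in vivo unfixed library. At least 5 genes gave 3.70%, 1.71%, 0.612% and 0.308% in library order. Thinning to 2000 UMIs gave 1.86%, 1.79%, 0.141% and 0.244%, and thinning to 1000 UMIs 0.302%, 0.375%, 0.0496% and 0.0554%. Main cluster members were 3.53%, 2.12%, 0.593% and 0.336%. The share with Gad1, Gad2 or Slc32a1 after thinning to 1000 UMIs was 40.1%, 36.7%, 32.6% and 26.5%. The leading cluster held 57.2% of septal-type nuclei at resolution 1 and 69.8% at resolution 2.

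Of the 10 values that changed sign, 8 have at most 3 UMIs in a library, which gives their sign little support, and the cause was not tested. With at least 5 genes they were Npsr1 at -1.06 (1 UMI in methanol, 1 in unfixed) and Tacr1 at 0.15 (65 in vivo, 9 post-mortem). After thinning to 2000 they were Cartpt at -0.70 (10 in methanol, 12 in unfixed), Rec114 at 0.54 (0 in both), Acly at 1.20 (21 in vivo, 0 post-mortem) and Oprd1 at 0.67 (7 in vivo, 0 post-mortem). In the main cluster they were Npsr1 at -2.44 (0 in methanol, 1 in unfixed), Tacr1 at 3.10 (33 in vivo, 0 post-mortem, at least 1.41-fold), Acly at 0.49 (27 in vivo, 2 post-mortem) and Oprd1 at 1.68 (12 in vivo, 0 post-mortem). Of the main cluster calls, 31 of the 324 genes lower than other nuclei and 19 of the 251 lower than other GABA nuclei had a bound under 2-fold against a library with no UMI. Depth limits genes with few UMIs in the post-mortem unfixed library, which had 98 septal-type nuclei.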
